A study of Mus musculus with 9 samples.

Results

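Milk sugar is made from glucose, and 8 genes that carry glucose from the blood to lactose were described in the lactating mammary gland of WT and hNAG-1 mice. They were Slc2a1, Hk1, Hk2, Pgm1, Pgm2, Ugp2, Slc35a2 and B4galt1. All array probes with one of these gene names were taken, which gave 17 probes for 8 of the 27962 gene names on the array. RNA of mammary gland number 4 was measured on lactation day 2 in 4 WT dams and in 5 dams that carried hNAG-1, each on an array of its own. Their transgene expresses human NAG-1 (also named GDF15) throughout the body, and the WT dams lack it. Per the study's methods the glands were taken after the fourth litter. The strain label of both genotypes reads C57BL/7, and the labels do not say which transgenic line was used. Whole glands were pulverized, so that fewer cells of a type and less RNA per cell cannot be told apart in any value given here.

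Glucose enters the secretory cell through the transporter encoded by Slc2a1 (GLUT1) and is trapped as glucose-6-phosphate by a hexokinase (Hk1 or Hk2). A phosphoglucomutase (Pgm1 or Pgm2) turns this into glucose-1-phosphate, from which the pyrophosphorylase Ugp2 makes UDP-glucose. UDP-glucose is converted to UDP-galactose, which Slc35a2 carries into the Golgi apparatus, and there the galactosyltransferase B4galt1, bound to alpha-lactalbumin (Lalba), joins galactose to glucose. Lactose draws water into milk, so that its synthesis governs milk volume.

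No probe of the 8 genes differed between genotypes after correction over all probes. Of the 17 probes, 0 had an adjusted p under 0.05 in the limma fit, where 0.00243% of all 41174 probes did, and the lowest adjusted p was 0.661. Without adjustment 1 probe, of Slc35a2, had a p under 0.05, against 5.6% of all probes and 1.15% called higher in hNAG-1. That split depended on the scaling, as 473 probes were called higher and 1834 lower here, 1506 and 1113 under quantile normalization, and 2550 and 1058 under median scaling. These shares also turned on single glands: 14.4% of all probes had an unadjusted p under 0.05 without hNAG-1 5 and 2.82% without hNAG-1 2, and 215 passed after adjustment without hNAG-1 5 and 138 with slide as a block, against 1 here. The same probe was the only 1 of the 17 without overlap between genotypes, against 1.35% of all probes. Of the 16 probes well above background in at least 1 WT gland, 13 were higher in hNAG-1 and 3 lower. Taking the brightest probe of each gene, 7 genes were higher and Ugp2 was at -0.0035, with a median log2 fold change of 0.16 beside -0.02 over all probes. That median was -0.04 with slide as a block, beside 0.19 over all probes. The 95% intervals of these 8 probes all included a fold of 1, with the lowest bound at a fold of 0.706 (B4galt1) and the highest at 2.05 (Hk2). The methods' own test on the same values also called 1 of the 17 without adjustment (4.82% of all probes) and 0 after it (0 of all probes).

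Values are the deposited intensity, scaled to a common 75th percentile and called scaled intensity here, and a log2 fold change is hNAG-1 minus WT. The level of a probe also depends on its sequence, so levels were compared between mice and not between probes. On every array 15 of the 17 probes were well above background, and 0 were saturated. Of 3 slides, the first carried WT 1 alone, slide 2 carried 4 hNAG-1 arrays (1 to 4), and WT 2 to 4 shared slide 3 with hNAG-1 5. Both genotypes were thus present on slide 3 only, and the fit with slide as a block therefore compares hNAG-1 5 with WT 2 to 4. The tissue label was met by its markers, as all 5 casein and whey genes and all 8 luminal epithelial genes of the marker lists were well above background on every array.

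**Figure D1:**
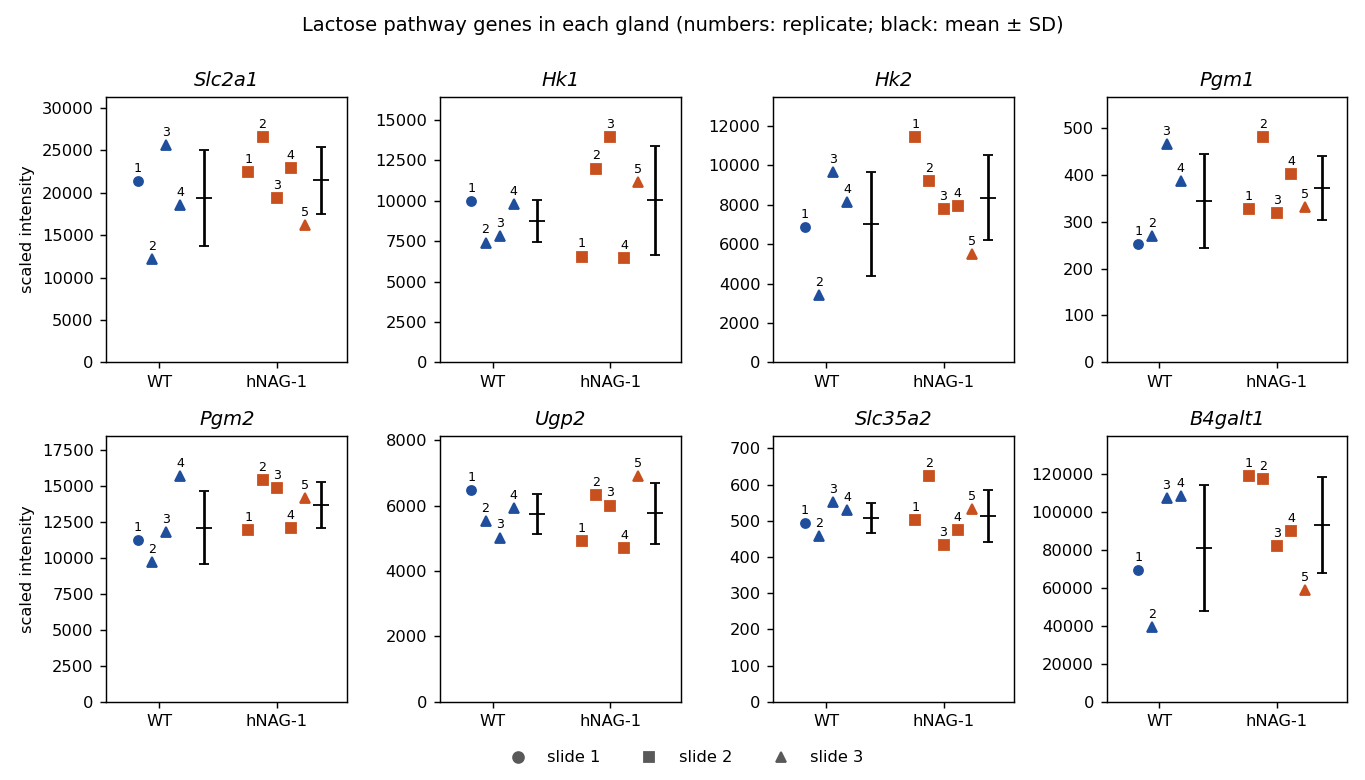
Scaled intensity (vertical axes, from 0) of the brightest probe of each gene in 4 WT and 5 hNAG-1 glands. Points carry the replicate number, their shape gives the slide, and black bars are mean ± SD. The genotypes overlap in all 8 panels, WT 2 is the lowest WT gland in 6 of them, and the hNAG-1 glands of Hk1 lie on both sides of the WT glands.

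Slc2a1, the glucose transporter of the basal membrane, had a scaled intensity of 21350, 12139, 25639 and 18520 in WT 1 to 4 and of 22432, 26539, 19317, 22892 and 16148 in hNAG-1 1 to 5. WT 2 was the lowest and hNAG-1 2 the highest of all glands, and the other 7 lay between. Mean levels of 19412 ± 5663 (SD, n = 4) for WT and 21466 ± 3924 (SD, n = 5) for hNAG-1 gave a log2 fold change of 0.18 (SE 0.24, 95% interval -0.36 to 0.72). This difference was matched or exceeded in many splits of the glands (exact permutation p = 0.508). It was -0.03 without WT 2 and -0.15 (SE 0.41) with slide as a block. Its single probe lies at chr4:118513698-118513757 of the array's mm7 coordinates.

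Hk1, the hexokinase of most adult tissues, had 6 probes. Its brightest probe gave 9947, 7409, 7784 and 9766 in WT 1 to 4 and 6544, 11982, 13919, 6464 and 11146 in hNAG-1 1 to 5. Thus 3 hNAG-1 glands (2, 3 and 5) lay above every WT gland and the other 2 (1 and 4) below every WT gland. The means were 8726 ± 1316 (SD, n = 4) and 10011 ± 3356 (SD, n = 5), with a log2 fold change of 0.14 (SE 0.27, exact permutation p = 0.603) and of 0.43 (SE 0.49) with slide as a block. Leaving out hNAG-1 3 brought it to 0.00, and leaving out hNAG-1 4 to 0.28. The spread between hNAG-1 glands was thus larger than the difference between genotypes.

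The split of the hNAG-1 glands was seen in further Hk1 probes. The probe A_51_P249024 gave 574, 549 and 601 in hNAG-1 2, 3 and 5 and 334 and 304 in hNAG-1 1 and 4, where the WT glands ranged from 335 to 392. A_52_P479599 gave 131, 100.2 and 114 in the first 3 and 40.4 in each of the other 2, where the WT glands ranged from 50.3 to 74.5. In A_52_P674530 the same 3 glands were above every WT gland (507 to 790 against 294 to 397) and 1 was below. These 3 probes had log2 fold changes of 0.31 (SE 0.24), 0.30 (SE 0.39) and 0.37 (SE 0.31). Probes of 1 gene are not independent measurements of the glands. The brightest Hk1 probe carries the gene name but a different sequence record from the other 5, one that the RefSeq table does not list.

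The 2 Hk1 probes farthest upstream did not share this order. A_52_P9337, at a distance of 46.3 kb from the brightest probe, ranged from 42.1 to 54.6 in WT and from 28.9 to 59.9 in hNAG-1 and was well above background in 4 WT and 3 hNAG-1 glands (log2 fold change -0.28, SE 0.23). A_52_P87141, at a distance of 89.2 kb, was not well above background in any WT gland and was so in 2 of 5 hNAG-1 glands, so no fold is given for it.

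Hk2, the insulin-responsive hexokinase that muscle and fat also use, gave 6845, 3438, 9652 and 8127 in WT 1 to 4 and 11427, 9180, 7769, 7926 and 5492 in hNAG-1 1 to 5. WT 2 was lowest of all, hNAG-1 1 was highest, and hNAG-1 5 was the lowest of its genotype. Mean scaled intensity was 7016 ± 2646 (SD, n = 4) and 8359 ± 2170 (SD, n = 5), and the log2 fold change was 0.31 (SE 0.32, 95% interval -0.41 to 1.03, exact permutation p = 0.452). Without WT 2 it came to 0.00, and with slide as a block to -0.23 (SE 0.55).

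The array's names for the phosphoglucomutases have since changed places. By accession, the probe named Pgm1 on the array belongs to the gene that RefSeq (GRCm38.p6) calls Pgm2, and the probe named Pgm2 belongs to Pgm1, the main phosphoglucomutase of most tissues. The array's names are kept here. The Pgm1 probe gave 252, 270, 465 and 387 in WT 1 to 4 and 326, 480, 319, 402 and 331 in hNAG-1 1 to 5, with a log2 fold change of 0.14 (SE 0.23, exact permutation p = 0.540) that ranged from 0.01 without WT 1 to 0.30 without WT 3. With slide as a block it was -0.14 (SE 0.38). All hNAG-1 glands except hNAG-1 2 lay within the WT range.

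The Pgm2 probe gave 11229, 9704, 11814 and 15686 in WT 1 to 4 and 11952, 15432, 14882, 12077 and 14216 in hNAG-1 1 to 5. All 5 hNAG-1 glands lay above WT 1 to 3, and WT 4 was the highest of all. The means were 12109 ± 2546 (SD, n = 4) and 13712 ± 1609 (SD, n = 5), with a log2 fold change of 0.19 (SE 0.18, 95% interval -0.20 to 0.59, exact permutation p = 0.262). With slide as a block it was 0.23 (SE 0.33), and it ranged from 0.09 without WT 2 to 0.33 without WT 4.

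Ugp2, which makes UDP-glucose, had means of 5741 ± 616 (SD, n = 4) for WT and 5765 ± 941 (SD, n = 5) for hNAG-1 with its brightest probe, and a log2 fold change of -0.0035 (SE 0.17, 95% interval -0.38 to 0.37). The glands gave 6487, 5538, 5026 and 5914 in WT 1 to 4 and 4906, 6328, 6005, 4692 and 6894 in hNAG-1 1 to 5. As for Hk1, hNAG-1 1 and 4 were lower than every WT gland, while hNAG-1 5 was higher than all others. With slide as a block the value was 0.33 (SE 0.28). The other Ugp2 probe had a log2 fold change of -0.04 (SE 0.21), with hNAG-1 4 at 1124 and the other 8 glands between 1529 and 2091.

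Slc35a2, the UDP-galactose transporter of the Golgi membrane, had 2 probes on chromosome X whose starts lie 215 bases apart, and these gave different results. They are shown here because the unadjusted call turns on 1 of them. The first holds 51.7% G and C bases and the second 48.3%. Their sequences (5′ to 3′, plus strand, mm7; all in lower case, as no part is singled out) are:
A_51_P162232 at chrX:6325732-6325791: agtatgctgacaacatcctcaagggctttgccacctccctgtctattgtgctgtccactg
A_51_P162238 at chrX:6325517-6325576: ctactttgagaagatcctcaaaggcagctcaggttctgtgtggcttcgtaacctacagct

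The first and brighter probe gave 493, 457, 551 and 528 in WT 1 to 4 and 503, 622, 432, 473 and 533 in hNAG-1 1 to 5. The genotypes overlapped throughout, with means of 507 ± 40.9 (SD, n = 4) and 513 ± 71.7 (SD, n = 5) and a log2 fold change of 0.01 (SE 0.15, 95% interval -0.33 to 0.34). The second and dimmer probe gave 180, 187, 198 and 221 in WT 1 to 4 and 241, 465, 267, 270 and 236 in hNAG-1 1 to 5. Here every hNAG-1 gland was above every WT gland, and hNAG-1 2 stood far above the rest.

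For the dimmer probe the means were 197 ± 18.1 (SD, n = 4) and 296 ± 95.7 (SD, n = 5), with a log2 fold change of 0.55 (SE 0.22, 95% interval 0.06 to 1.03). Its p was 0.031 in limma without adjustment and 0.661 after Benjamini-Hochberg, and its exact permutation p was 0.0238, where 0.00794 is the smallest that 9 arrays allow. The fold of 1.46 was below the 1.5 used in the study's criteria, which 0 of the 17 probes and 2.25% of all probes met here. Under quantile normalization its log2 fold change was 0.62, a fold of 1.54. The probe is also on the study's own list of changed probes, which was drawn from these mice and is not independent. The direction was kept in all 24 alternatives (left-out glands included), with a p under 0.05 in 18 of them. These reuse the same 9 arrays, and several leave the log2 fold change unchanged or repeat that of another. The counts are therefore no independent support. With slide as a block the difference was 0.23 (SE 0.39), as hNAG-1 5 at 236 was close to WT 4 at 221. Without hNAG-1 2 it was 0.37, and leaving out WT 1, WT 2 or WT 3 left a p above 0.05 (0.073, 0.063 and 0.058 in limma) with log2 fold changes of 0.50, 0.52 and 0.55.

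The log2 ratio of the dimmer to the brighter probe averaged -1.37 ± 0.11 (SD, n = 4) for WT glands and -0.83 ± 0.30 (SD, n = 5) for hNAG-1 glands. All 5 hNAG-1 ratios (from -1.17 to -0.42) were above all 4 WT ratios (from -1.47 to -1.26), a difference of 0.54 with an exact permutation p of 0.0159. Over the 9 probe pairs compared in the same way this p was 0.143 after Benjamini-Hochberg. The comparison was chosen after the values had been seen. Both probes are named for the same transcript, and why they differ was not tested.

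**Figure D2:**
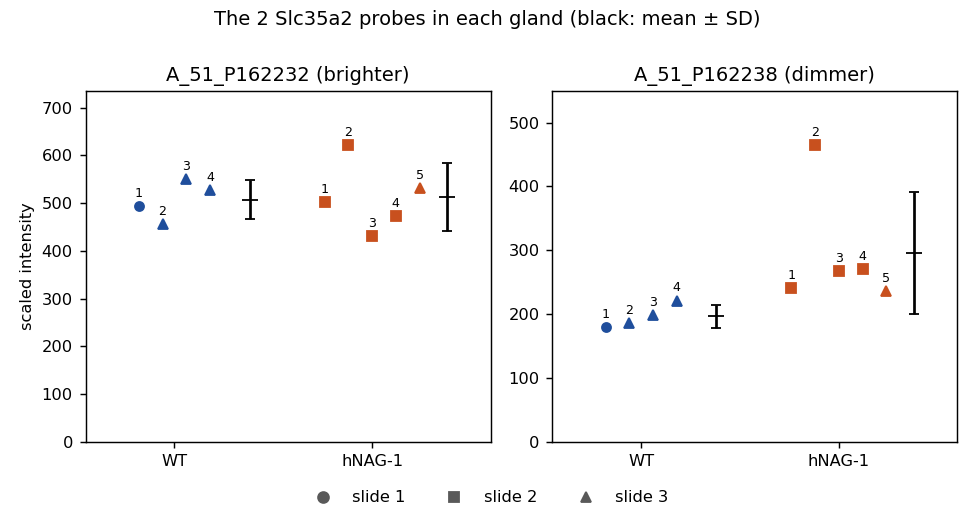
Scaled intensity (vertical axes, from 0) of both Slc35a2 probes in each gland, with replicate numbers, slides as point shapes and mean ± SD in black. On the left the genotypes overlap (432 to 622 in hNAG-1, 457 to 551 in WT). On the right they do not (236 to 465 against 180 to 221), with hNAG-1 2 at 465.

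B4galt1, the catalytic part of lactose synthase, gave 69506, 39372, 107061 and 108458 in WT 1 to 4 and 118527, 117279, 81748, 89695 and 58553 in hNAG-1 1 to 5 with its brightest probe. WT 2 was the lowest gland and hNAG-1 5 the next lowest, and hNAG-1 1 and 2 were above every WT gland. Means of 81099 ± 33157 (SD, n = 4) and 93160 ± 25324 (SD, n = 5) gave a log2 fold change of 0.26 (SE 0.34, 95% interval -0.50 to 1.03, exact permutation p = 0.532). It was -0.05 without WT 2 and -0.40 (SE 0.58) with slide as a block.

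A second B4galt1 probe, 137 bases from the first, gave a log2 fold change of 0.35 (SE 0.36). The third lies 49.0 kb upstream of the brightest one at chr4:40992159-40992218 (mm7, minus strand), holds 76.7% G and C bases, and is shown because it reads the other end of the same gene:
A_52_P122867: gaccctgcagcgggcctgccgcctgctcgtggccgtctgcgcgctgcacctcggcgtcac
It gave 972, 552, 826 and 835 in WT 1 to 4 and 1245, 833, 667, 770 and 586 in hNAG-1 1 to 5, with a log2 fold change of 0.02 (SE 0.25). WT 2 was again lowest, hNAG-1 5 next and hNAG-1 1 highest. This probe's log2 fold change differed from that of the brightest by -0.24. A difference of this size was matched or exceeded in many splits of the glands (exact permutation p = 0.357, and 0.536 after Benjamini-Hochberg over 9 pairs).

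**Figure D3:**
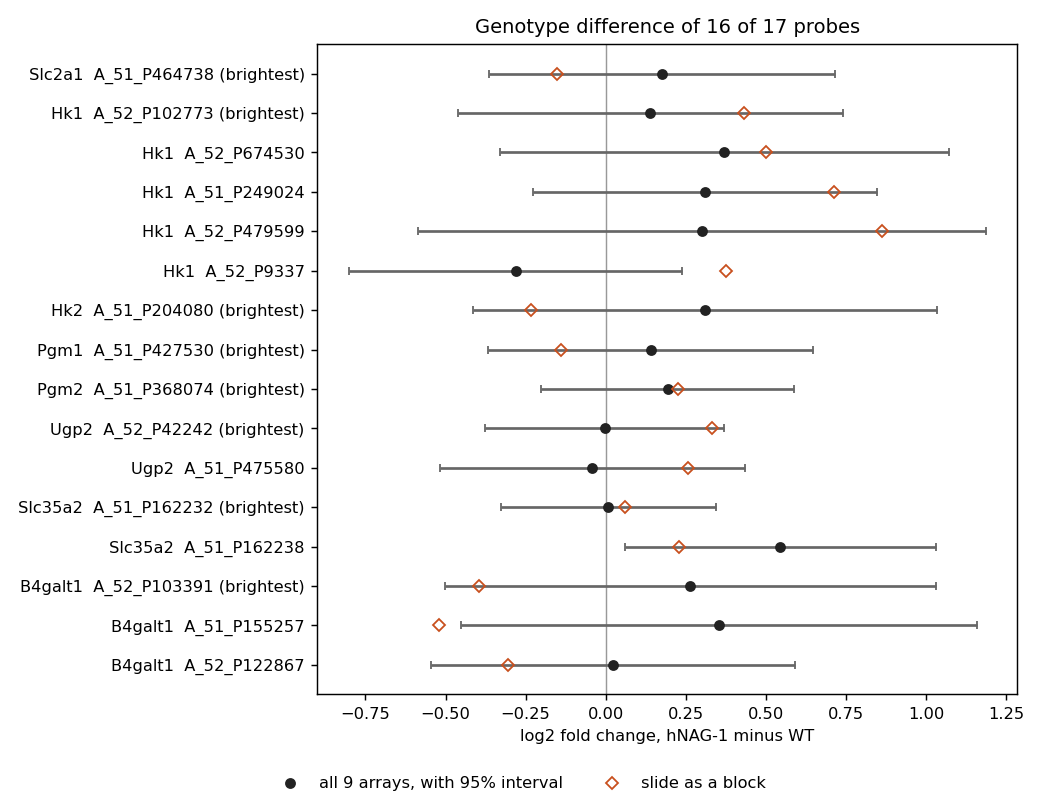
Log2 fold change (hNAG-1 minus WT, horizontal axis) of 16 of the 17 probes, with filled points and 95% intervals for the fit of all 9 arrays and open diamonds for the fit with slide as a block. The interval of 1 probe, Slc35a2 A_51_P162238, lies above 0, and the diamonds of Slc2a1, Hk2, Pgm1 and B4galt1 lie below 0. A_52_P87141 of Hk1 is left out because it was not well above background in any WT gland.

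Some single glands deviated in the same direction in all 8 genes. Taking the brightest probes, WT 2 was below the mean of the 9 arrays in all 8 genes and was the lowest WT gland in 6 of them, with a median deviation of -0.39 on the log2 scale. In contrast, hNAG-1 2 was above the mean in all 8 genes and was the highest of all glands in 3, with a median deviation of 0.35. WT 2 deviated by -1.10 for Hk2, by -1.08 for B4galt1 and by -0.04 for Ugp2. Without WT 2 the median log2 fold change of the 8 genes was -0.01, and without WT 3 it was 0.25.

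**Figure D4:**
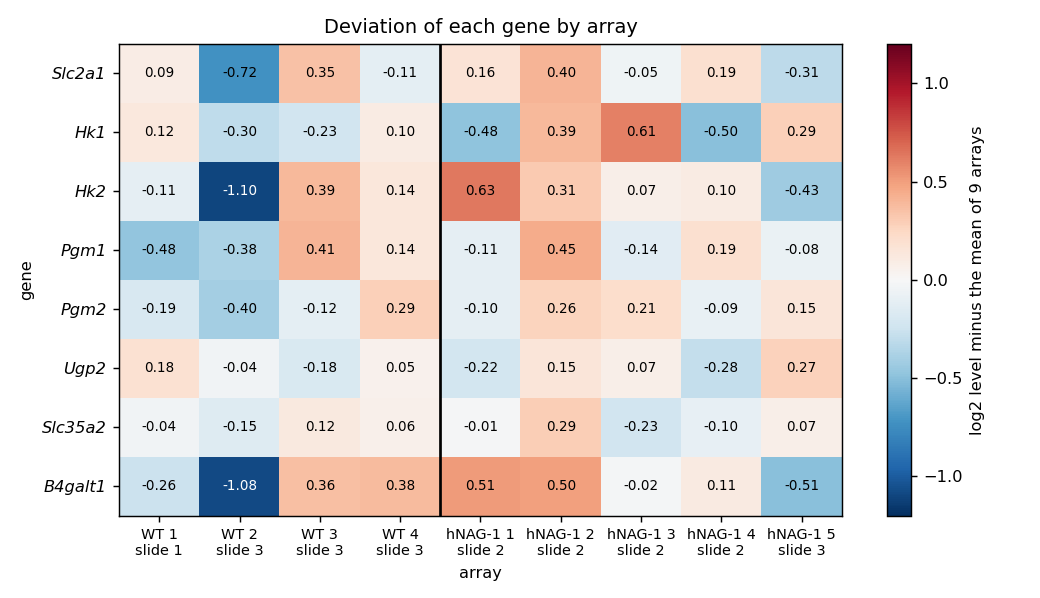
Log2 scaled intensity of each gene's brightest probe (rows) in each gland (columns, with its slide) minus the mean of the 9 arrays, with WT on the left of the black line. WT 2 is below 0 in all 8 rows and hNAG-1 2 above 0 in all 8. Hk1 has hNAG-1 3 at 0.61 and hNAG-1 4 at -0.50.

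WT 2 also stood apart in its markers of other cells. The summed scaled intensity of 8 lymphocyte markers was 51821 in WT 2, between 2455 and 8786 in the other WT glands, and between 1970 and 9721 in hNAG-1. All 8 lymphocyte markers were lower in hNAG-1, with a median log2 fold change of -1.32, and 0 of their brightest probes had an unadjusted p under 0.05 in limma, while 1 of the other 2 probes of Cd8a (a T cell co-receptor) had it (log2 fold change -1.82, SE 0.70, well above background in 4 WT and 3 hNAG-1 glands). WT 2 had the lowest sum of the luminal markers (156564, against 195815 to 294400 in the other 8 glands), of the casein and whey genes (1279800, against 1586240 to 2479390) and of the myoepithelial markers (57961, against 100640 to 138490). The probe of Wap, a whey gene in the second sum, was saturated on 2 arrays, where that sum may be too low. The 8 luminal markers were all higher in hNAG-1, with a median log2 fold change of 0.13. The 7 adipocyte markers were higher too (median 0.45), with sums of 409319 to 729333 in WT and 547819 to 681425 in hNAG-1. The adipocyte sum of hNAG-1 5 (646608) lay within those of WT 2 to 4 (418998 to 729333), the glands of the same slide. All 6 skeletal muscle markers were lower (median -1.54), with sums of 4286 to 88388 in WT and 2910 to 27407 in hNAG-1. On slide 3 the muscle sum of hNAG-1 5 (18857) lay within those of WT 2 to 4 (15054 to 88388). Over the brightest probes of all 8 marker lists, 1 gene had an unadjusted p under 0.05 in limma, beside 5.6% of all probes (1.15% called higher). This was the myoepithelial Myh11 (smooth muscle myosin), at 5598 to 8422 in WT and 8175 to 10691 in hNAG-1, with a log2 fold change of 0.48 (SE 0.16, exact permutation p = 0.0238). All 6 myoepithelial markers were higher in hNAG-1 (median 0.34), as were all 5 endothelial markers (median 0.21), and the 3 measured erythrocyte markers had a median of 0.03. On slide 3, however, the endothelial sum of hNAG-1 5 (5879) was below those of WT 2 to 4 (6134 to 6813). The part of these cells in the levels of the 8 genes was not tested.

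Some of the genes went up and down together from gland to gland. Hk2 and B4galt1 had a Pearson r of 0.968 over the 9 log2 values (exact permutation p = 3.3e-05, 9.3e-04 after Benjamini-Hochberg over 28 gene pairs) and a Spearman rho of 0.950 (exact permutation p = 3.5e-04, adjusted 0.0099). Without WT 2 and hNAG-1 5, the 2 glands farthest from the median of Hk2, r was 0.853. The test shuffled the glands across both genotypes and all slides. Outside these genes, Hk2 had r 0.989 with Amigo3 and 0.987 with Drd4, the highest among 14946 named probes. The part of a shift shared by many genes of a gland was not tested. For Slc2a1 with Hk2, r was 0.892 (exact permutation p = 0.0026, adjusted 0.036) and rho 0.75 (exact permutation p = 0.025, adjusted 0.238), but r was 0.458 without WT 2 and hNAG-1 5. These 2 glands were also the farthest from the median of Slc2a1. Leaving them out narrows its range, which can by itself lower r. Slc2a1 with B4galt1 had r 0.865 (exact permutation p = 0.0041, adjusted 0.038), rho 0.683 (exact permutation p = 0.050, adjusted 0.275) and r 0.397 without these glands.

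Hk1 was nearest to Ugp2 over all 9 glands, although this relation did not pass the adjusted threshold. Their r was 0.830 (exact permutation p = 0.0086, adjusted 0.060) and rho 0.833 (exact permutation p = 0.0083, adjusted 0.116), and r was 0.655 without hNAG-1 4 and hNAG-1 1. Hk1 and the array's Pgm2 had r 0.693 (exact permutation p = 0.043, adjusted 0.179), rho 0.483 (exact permutation p = 0.194, adjusted 0.388) and r 0.767 without those glands. At the same adjusted p, the array's Pgm1 had r 0.703 with B4galt1 (exact permutation p = 0.033) and 0.675 with Slc35a2 (exact permutation p = 0.045). Without hNAG-1 2 and WT 3 these came to 0.612 and 0.269. No slide held more than 4 glands, which is too few to give these relations within a slide.

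**Figure D5:**
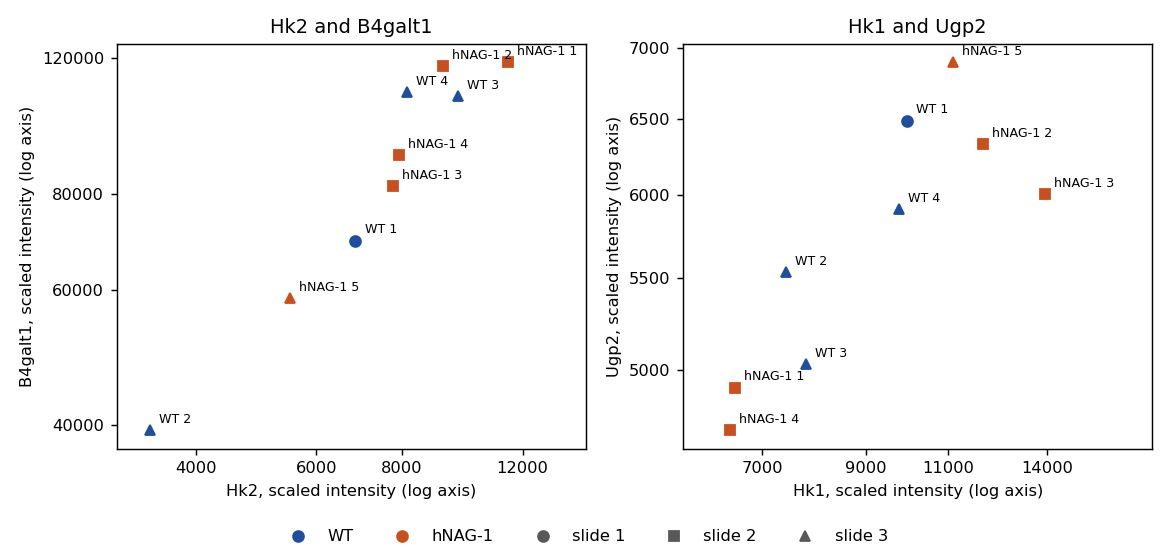
Scaled intensity of B4galt1 against Hk2 (left) and of Ugp2 against Hk1 (right), on log axes, 1 point per gland, with genotype by colour and slide by shape. On the left WT 2 and hNAG-1 5 lie at the low end and hNAG-1 1 and 2 at the high end. On the right hNAG-1 1 and 4 are at the low end.

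Promoters of Hk2 and B4galt1 are shown as the pair with the highest r. RefSeq (GRCm38.p6) held 10 promoters for the 8 genes, each of 250 bases before and 50 bases after a start. Capitals mark GGGCGG on either strand, the sequence read by Sp family factors:
Hk2 at chr6:82774405-82774704, minus strand: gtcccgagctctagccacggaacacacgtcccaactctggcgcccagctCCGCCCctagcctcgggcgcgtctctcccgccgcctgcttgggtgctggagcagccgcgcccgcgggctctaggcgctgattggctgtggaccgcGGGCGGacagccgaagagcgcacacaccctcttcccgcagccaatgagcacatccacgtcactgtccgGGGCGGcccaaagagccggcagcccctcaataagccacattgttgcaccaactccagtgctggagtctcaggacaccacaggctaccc
B4galt1 at chr4:40853935-40854234, minus strand: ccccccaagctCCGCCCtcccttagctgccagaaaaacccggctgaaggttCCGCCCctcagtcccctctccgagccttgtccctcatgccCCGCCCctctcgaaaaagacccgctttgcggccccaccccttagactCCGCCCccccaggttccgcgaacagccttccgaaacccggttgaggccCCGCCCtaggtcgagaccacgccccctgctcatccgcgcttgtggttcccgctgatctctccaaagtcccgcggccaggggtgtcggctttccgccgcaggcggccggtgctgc
GGGCGG occurred 3 times in the Hk2 promoter and 5 times in that of B4galt1, and at least once in 8 of the 10 promoters (in all but those of Hk1), against 35.7% of 32851 promoters. The 10 promoters held 51.3% to 76.0% G and C bases, where the median of all promoters was 52.7%. ACGTG, searched on both strands, was present 2 times for Hk2, in 7 of the 10 promoters, and in 19.6% of all promoters. TTCNNNGAA, the palindrome read by Stat factors, was found 1 time, in the B4galt1 promoter, and in 8.30% of all. TATAAA, on either strand, was in the promoters of Slc2a1 and of the gene the array calls Pgm2, and in 13.6% of all. Overlapping matches of a motif were counted, and such matches describe letters only.

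Outside these genes, the profiles most like theirs over the 9 arrays were sought among 14946 named probes well above background on every array. For B4galt1 these were Slc16a9 (r 0.989) and Hsd17b7 (r 0.982), and for Hk2 they were Amigo3 (r 0.989) and Drd4 (r 0.987). Slc2a1 was most like Polr2d (r 0.970) and Golga7 (r 0.965), and Hk1 most like Nek6 (r 0.968) and Arhgap18 (r 0.953). For the array's Pgm2 they were Trim68 (r 0.972) and Med25 (r 0.962), and for its Pgm1 Tomm20 and Vamp4 (both r 0.949). Ugp2 was nearest to Nudt13 (r 0.958) and Trim32 (r 0.935), and Slc35a2 to Pcdhb17 (r 0.953) and Heatr1 (r 0.946). With 14946 probes to choose from, such values describe these 9 arrays only.

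Other genes of the pathway were counted by their brightest probe. Of 77 measured genes in 8 lists, 2 were higher and 2 lower at an unadjusted p under 0.05 in limma (5.19%, beside 5.6% of all probes), 0 passed after adjustment, and the median log2 fold change was 0.09. Lalba, the partner of B4galt1 in lactose synthase, had a scaled intensity of 69730, 52376, 55391 and 66976 in WT 1 to 4 and of 59208, 111353, 92413, 60534 and 73411 in hNAG-1 1 to 5. The 3 hNAG-1 glands above every WT gland were hNAG-1 2, 3 and 5, as for Hk1. Its log2 fold change was 0.34 (SE 0.22, exact permutation p = 0.183), and 0.34 with slide as a block.

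Both genes called higher were Slc2a5, the fructose transporter, and Pygl, the liver form of glycogen phosphorylase. Slc2a5 gave 12.1, 154, 651 and 1667 in WT 1 to 4 and 1327, 2075, 2510, 625 and 2309 in hNAG-1 1 to 5, with a log2 fold change of 2.90 (SE 1.24, exact permutation p = 0.056), and it was well above background in 3 of 4 WT glands. Without WT 1 it was 1.52, and its unadjusted p was no longer under 0.05 in 6 of 9 fits that left out a gland. Pygl gave 3639, 4395, 10124 and 15147 in WT 1 to 4 and 14130, 18767, 16046, 9957 and 16381 in hNAG-1 1 to 5, with a log2 fold change of 1.07 (SE 0.42, exact permutation p = 0.063), which lost its unadjusted call in 5 of 9 such fits. Its other probe (log2 fold change 0.02, SE 0.44) was well above background in 1 WT and 1 hNAG-1 gland only. In both genes WT 1 and 2 were lowest and the genotypes overlapped. WT 1 and 2 also had the lowest adipocyte marker sums of all glands (409319 and 418998), whose part in these 2 genes was not tested.

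The genes called lower were Slc2a2, the low-affinity glucose transporter GLUT2, and B4galt5, a galactosyltransferase of glycolipid synthesis. Slc2a2 gave 71.1, 72.0, 70.8 and 80.2 in WT 1 to 4 and 48.4, 26.9, 21.2, 30.2 and 79.6 in hNAG-1 1 to 5 (log2 fold change -1.002, SE 0.35, exact permutation p = 0.063). Its other probe was not well above background in any gland. B4galt5 gave 138, 64.1, 62.8 and 95.7 in WT 1 to 4 and 29.5, 8.04, 17.5, 9.56 and 102 in hNAG-1 1 to 5 (log2 fold change -2.03, SE 0.69, exact permutation p = 0.056). Both called probes were well above background in 4 WT and in 2 of 5 hNAG-1 glands, and both are on the study's own list of changed probes from the same mice. Neither lost its unadjusted call in the 9 fits that left out a gland. In both, the 4 hNAG-1 glands of slide 2 were below every WT gland, while hNAG-1 5, which shared slide 3 with WT 2 to 4, lay within the WT range. With slide as a block the values were 0.10 and 0.48, and the effect of slide cannot be told apart from that of genotype for slide 2.

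By list, 15 of 18 measured genes of glycolysis and the pentose phosphate branch were higher in hNAG-1 and 3 lower (median 0.22), and 0 had an unadjusted p under 0.05 in limma. Pfkl, a phosphofructokinase, was at 0.46 (exact permutation p = 0.040) and at 0.11 with slide as a block. WT 2 had the lowest sum of this list, at 687709 against 1026460 to 1191690 in hNAG-1. The UDP-sugar and glycogen enzymes had a median of 0.09 (9 higher, 4 lower), the other glucose transporters of -0.01 (6 and 6), the other nucleotide sugar transporters of 0.06 (9 and 4) and the other galactosyltransferases of this family of 0.02 (3 and 3). Lactogenic regulators had a median of 0.09 (9 higher, 2 lower). With slide as a block only Elf5, Akt2 and Insr of these were higher, and all the others were lower. Insr, the insulin receptor, had the largest difference of the regulators but was well above background in 2 WT glands and 1 hNAG-1 gland only. It was not called, and its log2 fold change of -0.69 (SE 0.50) turned to 1.17 with slide as a block. Slc35d3, listed first by size among the nucleotide sugar transporters, was well above background in 1 WT gland and in no hNAG-1 gland, so no fold is given. Hkdc1, the largest among the other hexokinases, was not well above background in any gland.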

How the data were processed

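The authors deposited scanner output of 9 1-color Agilent arrays (Feature Extraction 9.5.3.1) as background-subtracted intensity per feature, without scaling between arrays. Their methods use ANOVA in Array Studio and call probes at p under 0.05, 1.5-fold change and an intensity of 65 or more. Control features were left out here, features of a probe were averaged, each array was divided by its 75th percentile (533 to 1185), and log2 was taken. Over 41174 probes, genotypes were compared with limma 3.58.1 in R 4.3.3 (lmFit, eBayes, two-sided, no covariates, 7 residual degrees of freedom), with Benjamini-Hochberg adjustment over all probes. Exact permutation tests were two-sided over 126 splits of the arrays. Between 59.1% and 75.6% of probes were well above background on an array, and precision is limited by how few arrays there are. Scripts were tested on simulated data. Samples were grouped by their labels. The 8 genes and all lists were chosen with earlier results of these data known, so no p of a genotype difference at a probe is adjusted over a list. Correlations (28 gene pairs) and probe ratios (9 pairs) are adjusted over these genes only. Named genes are all 8 with every probe, list genes with an unadjusted p under 0.05, the largest difference of each pathway list, Lalba, and the 2 most similar named probes per gene. Of 78 pathway list genes, 77 were matched (not Gapdh), and 3 of 5 erythrocyte markers. Sequences are those of the scanner files and of RefSeq promoters. The closing section gives the alternatives: background correction, scaling, filters, test, array weights, slide, replicate block, and each gland left out in turn.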

Additional observations from a re-analysis of the deposited data

Results flagged for a closer look

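Among the 34 groups of glands tested for 1 value far from the others (17 probes in 2 genotypes), 3 met Dixon's criterion, which chance meets in about 1 of 20 groups. In Slc35a2 A_51_P162238, hNAG-1 2 was highest in its genotype, at 465 against 236 to 270 in the other 4. In Hk1 A_52_P674530, WT 3 was lowest, at 294 against 380 to 397 in the other 3. In Ugp2 A_51_P475580, hNAG-1 4 was lowest, at 1124 against 1790 to 2091.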

How the results depend on the processing

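No probe of the 8 genes had an adjusted p under 0.05 under any of the 16 alternatives (limma or the methods' test) or, in limma, with any gland left out. The number with an unadjusted p under 0.05 went from 1 to 0 without scaling (5.02% of all probes) and with slide as a fixed block (7.61%), and ranged from 0 to 1 when a gland was left out (0 without WT 1, WT 2 or WT 3). On slide 3 alone (9.04% of all probes), which sets 1 hNAG-1 gland against 3 WT glands, the 1 probe was A_52_P87141 of Hk1, which was not well above background in any WT gland, and not that of Slc35a2. Of 128 log2 fold changes of single genes under the alternatives, 20 reversed, as did 10 of 72 with a gland left out. These counts give no rate of stability. The dim-probe filter, outlier flags, floor on low values, limma's trend and robust options, and methods' test left all such values unchanged. Slide 3 alone repeats slide as a fixed block, and the methods' test on quantile values repeats quantile normalization. The replicate block repeats the fit without hNAG-1 5. Median scaling moved the median of all probes to 0.20 and Ugp2 to 0.21. Without scaling (median of all probes -0.16) Hk1 came to -0.0072, Pgm1 to -0.0067 and Slc35a2 to -0.14. Array weights gave -0.050 for Pgm1, 0.021 for Ugp2, -0.057 for Slc35a2 and -0.016 for B4galt1. Slide as a fixed block and slide 3 alone (median of all probes 0.19) both gave -0.15 for Slc2a1, -0.23 for Hk2, -0.14 for Pgm1, 0.33 for Ugp2 and -0.40 for B4galt1, and slide as a random block gave 0.017 for Ugp2. Leaving out a gland gave -0.032 to 0.33 for Slc2a1, -0.072 to 0.067 for Ugp2, -0.065 to 0.067 for Slc35a2 and -0.046 to 0.44 for B4galt1, and the median of the 8 genes ranged from -0.01 to 0.25. This median was 0.37 under median scaling, 0.01 without scaling, 0.04 with array weights and -0.04 with slide as a block. Glands with the same replicate number did not deviate together (r 0.28, -0.20, -0.14 and -0.31), and with the replicate number as a block Slc35a2 came to -0.0088. This fit also loses hNAG-1 5, which has no WT partner, and 5447 of all probes had an unadjusted p under 0.05 in it, beside 5924 without hNAG-1 5 and without the block. The causes were not tested.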
